A study of Mus musculus with 4 samples.

Results

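Keratins and claudins were described in mouse livers after treatment with a carcinogen, a bile acid diet, or both. Every gene whose single annotated symbol was Krt or Cldn followed by digits only was taken, which gave 64 genes, 44 keratins and 20 claudins, of the 18194 genes named on the array. Keratins with a letter in the symbol, keratin-associated proteins and claudin-like genes with a letter were outside this choice. The rule itself uses no measured value, but it was chosen with earlier results of these data known. Where a gene had several probe sets, the brightest by its 4-array mean stood for it.

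The 4 groups were mice given diethylnitrosamine (DEN, a liver carcinogen) and then fed 0.2% cholic acid (CA, a bile acid made by the liver) in the diet, mice given DEN and then fed control diet, mice fed the 0.2% CA diet without DEN, and mice fed control diet without DEN. Each group was 1 array hybridised with a liver RNA pool of 3 to 5 mice, all 10 months old. The sources used here give neither strain nor sex nor DEN dose, and they name the tissue as liver without stating how much tumour each pool held. With 1 array per group no test was possible and no p-value is given. A difference compares 1 pool with another, and its precision is limited by that number of arrays.

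Keratins are the intermediate filament proteins of epithelial cells and assemble from pairs of an acidic type I and a basic type II chain. Adult hepatocytes use only the pair of Krt8 (type II) and Krt18 (type I), while bile duct cells add Krt7 and Krt19, and Krt23 is a type I keratin known from ductular reactions in injured mouse liver. Claudins are membrane proteins of the tight junction that set which ions and solutes pass between cells, and in the liver they seal the bile canaliculus against the blood side.

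Values are log2 expression levels, so that a difference of 1 is 2-fold. The expression limit was 4.855, the median of all probe sets' 4-array means, and the 11651 genes whose mean reached it are called expressed. The 9 measured hepatocyte markers reached this limit on every array, at 6.80 to 14.82. As a technical yardstick, the largest difference among 18 hybridization control probe sets was 0.203 for DEN against no DEN under control feeding, 0.370 for the same under CA feeding and 0.184 for DEN with CA diet against control diet. For the CA diet against the control diet they differed by at most 0.305 without DEN and 0.267 after DEN.

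Of the 64 members 21 were expressed, 13 keratins and 8 claudins, and 43 were not. Among the 43, 25 of 31 keratins and 12 of 12 claudins were under the limit on all 4 arrays, and none of the 43 differed by 2-fold in any of the 5 comparisons of 2 arrays (largest difference 0.73, for Krt19). Genes under the limit rarely did. For DEN under control feeding 695 of all 18194 genes were higher and 115 lower, and 596 and 105 of these were among the 11651 expressed. The absence of calls thus says little about these 43 members. 6 of the 21 expressed members passed 2-fold in at least 1 comparison: Krt18, Krt20, Krt23, Cldn1, Cldn7 and Cldn14. The share of all expressed genes past it in at least 1 comparison was not computed, so this count has no background here. Shares for each comparison are given below. Krt20 and Cldn7 reached the limit only on the DEN arrays and passed the filter through them, so their place among the expressed members already depended on that difference.

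**Figure D1:**
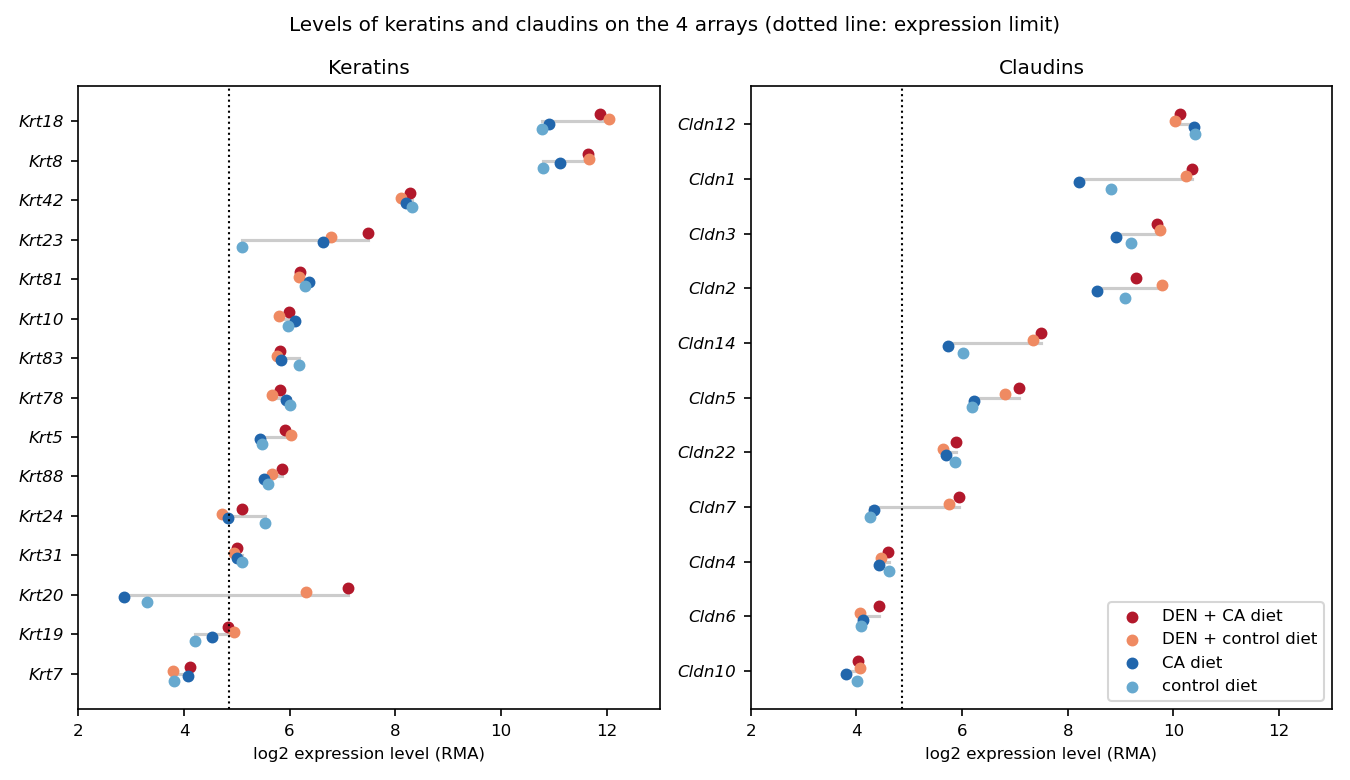
Log2 expression level on the 4 arrays (x axis) of the expressed keratins and claudins and of Krt7, Krt19, Cldn4, Cldn6 and Cldn10 (y axis, ordered by mean), with 1 point per array. Krt20 and Cldn7 lie right of the limit of 4.855 on both DEN arrays and left of it on both arrays without DEN, whereas most other keratins hold their 4 points close together.

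The hepatocyte pair was measured far above the limit on every array. Krt18, the type I chain of hepatocytes, stood at 11.87 with DEN and CA diet and 12.04 with DEN and control diet, against 10.90 under CA feeding and 10.78 under control feeding without DEN. Both DEN arrays were above both arrays without DEN. The DEN pool was 2.40-fold higher under control feeding and 1.96-fold higher under CA feeding, where the log2 difference was 0.97. Its partner Krt8 stood at 11.65 with DEN and CA diet and 11.67 with DEN and control diet, against 11.12 under CA feeding and 10.79 under control feeding. Krt8 was higher with DEN by 0.88 under control feeding and 0.53 under CA feeding, under 2-fold in both. The 3 probe sets of Krt8 gave 0.82 to 0.88 under control feeding and 0.48 to 0.53 under CA feeding, all the same way. Krt18 has a single probe set. In the RefSeq annotation of GRCm38.p6 both genes are direct neighbours, although Krt18 is a type I gene among type II genes. Krt78, the coding gene on the other side of Krt8, stayed between 5.66 and 6.01 on the 4 arrays.

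Krt20 had the largest DEN difference of the 64 members. It is a type I keratin known from intestinal and bladder epithelium. Its level was 7.11 with DEN and CA diet and 6.31 with DEN and control diet, against 2.87 under CA feeding and 3.29 under control feeding. The arrays without DEN were thus well under the limit and both DEN arrays above it. The log2 difference was 3.01 under control feeding and 4.24 under CA feeding. Measured from the limit, the form used for folds against a level under it, Krt20 was at least 2.74-fold higher with DEN under control feeding and at least 4.78-fold higher under CA feeding. It rests on 1 probe set.

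Krt23 was higher with either treatment. It stood at 7.48 with DEN and CA diet, 6.78 with DEN and control diet, 6.64 under CA feeding and 5.09 under control feeding, all above the limit. The control array was the low one and the other 3 lay within 0.84 of each other. Against the control diet Krt23 was 3.22-fold higher with DEN, 2.93-fold higher with CA and 5.24-fold higher with both, and these 3 comparisons share the control array. On the CA diet DEN went with 1.79-fold more, and after DEN the CA diet went with 1.62-fold more. Krt23 also has a single probe set.

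Krt20 and Krt23 are direct neighbours in the type I keratin cluster of the RefSeq annotation of GRCm38.p6, and both were higher with DEN. Krt12, the cornea keratin on the other side of Krt20, stayed between 2.63 and 2.96 on all 4 arrays, under the limit. Their upstream sequences are shown because these neighbours and the 2 abundant members Krt18 and Cldn1 passed 2-fold and have 1 annotated start each. The windows hold the 250 bases before the start, from RefSeq on GRCm38.p6, read 5′ to 3′ on the strand of the gene: Krt20 at chr11:99438154-99438403, minus strand, Krt23 at chr11:99493121-99493370, minus strand, Krt18 at chr15:102027966-102028215, plus strand, and Cldn1 at chr16:26371840-26372089, minus strand. Capitals mark TATA boxes (TATAAA) and GC boxes (GGGCGG) on either strand.
Krt20: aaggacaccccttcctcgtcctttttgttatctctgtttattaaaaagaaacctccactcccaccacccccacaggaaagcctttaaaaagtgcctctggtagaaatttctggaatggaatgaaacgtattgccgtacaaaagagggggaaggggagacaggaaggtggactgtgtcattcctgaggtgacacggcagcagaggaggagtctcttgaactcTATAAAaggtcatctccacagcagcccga
Krt23: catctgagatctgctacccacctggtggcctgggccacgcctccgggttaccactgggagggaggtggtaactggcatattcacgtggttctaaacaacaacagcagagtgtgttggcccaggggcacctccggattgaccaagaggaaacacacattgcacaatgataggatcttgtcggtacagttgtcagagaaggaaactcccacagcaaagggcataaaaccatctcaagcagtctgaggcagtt
Krt18: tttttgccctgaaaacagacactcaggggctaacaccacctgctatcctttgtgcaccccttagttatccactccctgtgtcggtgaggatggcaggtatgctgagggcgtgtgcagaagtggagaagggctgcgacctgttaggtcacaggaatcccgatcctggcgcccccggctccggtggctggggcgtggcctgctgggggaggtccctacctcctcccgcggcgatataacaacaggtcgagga
Cldn1: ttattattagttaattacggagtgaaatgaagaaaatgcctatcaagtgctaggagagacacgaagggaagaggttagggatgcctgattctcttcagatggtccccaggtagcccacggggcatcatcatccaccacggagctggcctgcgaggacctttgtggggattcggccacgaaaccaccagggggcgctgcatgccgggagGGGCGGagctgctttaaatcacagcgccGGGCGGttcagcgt

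The Krt20 window held a TATA box that begins at position -29, counted from the start, and the Cldn1 window 2 GC boxes that begin at -42 and -14. None of these matches overlapped another. The windows of Krt23 and Krt18 held neither run of letters. Of all 32851 windows in the table, 12.4% held the TATA box and 32.7% the GC box on either strand. The other runs of letters searched were TGANTCA for AP-1, TTCNNNGAA for STAT factors and CTTTGA for TCF/LEF, present in 6.75%, 7.02% and 13.8% of all windows and in none of these 4. N stands for any base. STAT runs were found for 6 of the 18 expressed members with a window, Cldn7, Cldn12, Cldn14, Krt24, Krt31 and Krt42, a TCF/LEF run for Krt31, and AP-1 runs for 0. TATA boxes were found for Cldn2, Krt10, Krt20 and Krt31, and GC boxes for Cldn1, Cldn3, Cldn5, Cldn7 and Cldn12. These members were counted by gene, with a match in any window of the gene, whereas the shares above are of windows. Some of these genes, among them Cldn7, Cldn12 and Cldn14, have several windows, so the counts cannot be set against those shares. Of all 47 members with a window, expressed or not, 7 had a STAT run. A match in these windows is a description of the letters only.

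The classic bile duct keratins were near background. Krt7 stood at 4.11 with DEN and CA diet, 3.79 with DEN and control diet, 4.08 under CA feeding and 3.81 under control feeding, under the limit throughout. Krt19 stood at 4.83 with DEN and CA diet, 4.94 with DEN and control diet, 4.53 under CA feeding and 4.21 under control feeding, and reached the limit on the array of DEN with control diet alone. Its difference with DEN was 0.73 under control feeding and 0.29 under CA feeding. So of the 3 ductular keratins only Krt23 was expressed by the limit used. In the same pools, of 12 measured cholangiocyte markers 10 reached the limit with DEN on either diet, against 9 under CA feeding and 7 under control feeding, and their mean level was 7.13 with DEN and CA diet, 7.07 with DEN and control diet, 5.73 under CA feeding and 5.47 under control feeding. By measured levels 6 of the 10 expressed ones passed 2-fold upwards with DEN under control feeding and 4 under CA feeding, against 5.12% and 4.75% of all expressed genes. The median difference with DEN over the 12 measured was 0.91 under control feeding and 0.45 under CA feeding. Tspan8 and Prom1 had the largest differences and weigh most in the mean level. Tspan8, a tetraspanin, was under the limit on both arrays without DEN, so it counts as expressed through the DEN arrays, and it was at least 92.0-fold higher with DEN under control feeding and at least 119.1-fold higher under CA feeding. Prom1, prominin of duct cells, was at least 28.9-fold and 27.0-fold higher, while Epcam, a surface marker of duct cells, differed by -0.05 and 0.11. Ezr differed by -0.29 with DEN under control feeding and -0.23 under CA feeding, and Slc4a2 by -0.15 and -0.18. The list holds 0 of the members described here, and its part in the keratin differences was not tested. In pooled tissue, more cells of a type and more RNA per cell cannot be told apart.

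The other 9 expressed keratins are no keratins of hepatocytes or ducts by the lists used, and none passed 2-fold between any 2 arrays compared. Krt5, the type II chain of basal epithelial cells, stood at 5.91 with DEN and CA diet and 6.02 with DEN and control diet, against 5.44 under CA feeding and 5.47 under control feeding. This was 0.55 higher with DEN under control feeding and 0.48 under CA feeding. Krt24, a type I keratin, was close to the limit at 5.11 with DEN and CA diet, 4.73 with DEN and control diet, 4.83 under CA feeding and 5.53 under control feeding. Its DEN difference was -0.80 under control feeding and 0.27 under CA feeding. The second of these is smaller than the largest hybridization control difference of that comparison (0.370), and the CA array was under the limit. Krt10 and Krt31, type I keratins of skin and of hair, and Krt78, Krt81, Krt83 and Krt88 spanned at most 0.42 each over the 4 arrays. Krt42 lay between 8.11 and 8.32 on a probe set of the _x_at class, which can bind related transcripts, and at 3.64 to 4.33 on its other probe set, so its level is uncertain. Of 24 measured keratins of stratified epithelium and hair 4 were expressed and 0 differed by 2-fold with DEN on either diet. Of all expressed genes 5.12% were higher under control feeding and 4.75% under CA feeding. Of 9 markers of stratified epithelium 4 reached the limit on each array but the control diet one, where 3 did, and their mean level was 4.71 with DEN and CA diet, 4.66 with DEN and control diet, 4.69 under CA feeding and 4.67 under control feeding. Sprr1a, a cornified envelope protein, was the 1 past 2-fold with DEN under control feeding, by 1.15 against a level under the limit (at least 1.93-fold), and differed by 0.26 under CA feeding.

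Among hepatocyte claudins Cldn1 and Cldn14 differed most with DEN. Cldn1, a sealing claudin of the bile canaliculus, stood at 10.34 with DEN and CA diet and 10.23 with DEN and control diet, against 8.22 under CA feeding and 8.81 under control feeding. Both DEN arrays were above both others. Cldn1 was 2.68-fold higher with DEN under control feeding and 4.37-fold higher under CA feeding. Its second probe set, at a mean of 5.41, differed by 1.67 and 1.61, and was under the limit on both arrays without DEN. The 2 further probe sets lay far under the limit (means 2.41 and 2.12) and differed by at most 0.24. With the mean over the 4 probe sets Cldn1 differed by 0.89 under control feeding and 1.00 under CA feeding, and its mean level then lay under the limit. Cldn14, a claudin of hepatocytes, kidney and inner ear, stood at 7.49 with DEN and CA diet and 7.34 with DEN and control diet, against 5.73 under CA feeding and 6.01 under control feeding. This made it 2.51-fold higher with DEN under control feeding and 3.39-fold higher under CA feeding, on its single probe set.

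Cldn2 and Cldn3 were higher with DEN by less than 2-fold. Cldn2, which forms a pore for cations and water and is known from hepatocytes around the central vein, stood at 9.29 with DEN and CA diet and 9.79 with DEN and control diet, against 8.55 under CA feeding and 9.09 under control feeding. Here the diets also differed: each CA array was lower than the control diet array of the same DEN treatment. The DEN difference was 0.70 under control feeding and 0.74 under CA feeding, but the other probe set of Cldn2 gave 0.13 and -0.08. The 8 pericentral hepatocyte markers had a median of -0.76 with DEN under control feeding and -0.55 under CA feeding, against 0.035 and 0.00433 over all expressed genes. Cldn3, a barrier-forming claudin, stood at 9.69 with DEN and CA diet and 9.74 with DEN and control diet, against 8.91 under CA feeding and 9.20 under control feeding. Its 4 probe sets gave 0.54 to 0.73 with DEN under control feeding and 0.71 to 0.99 under CA feeding. Cldn12, a claudin without the usual anchor to scaffold proteins, ran the other way, at 10.12 with DEN and CA diet and 10.02 with DEN and control diet, against 10.38 under CA feeding and 10.40 under control feeding. Its DEN difference was -0.38 under control feeding and -0.26 under CA feeding, and its other probe set gave -0.41 and -0.38.

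Cldn7, an epithelial claudin of the basolateral membrane, stood at 5.95 with DEN and CA diet and 5.75 with DEN and control diet, against 4.34 under CA feeding and 4.25 under control feeding. The levels without DEN were under the limit, so that Cldn7 was at least 1.85-fold higher with DEN under control feeding and at least 2.13-fold higher under CA feeding (log2 differences 1.49 and 1.61). The other 5 of the ductular and oncofetal claudins, Cldn4, Cldn6, Cldn8, Cldn9 and Cldn10, were under the limit on all 4 arrays. Cldn6, a claudin of fetal tissues, stood at 4.43 with DEN and CA diet, 4.07 with DEN and control diet, 4.13 under CA feeding and 4.09 under control feeding. Cldn4, the neighbour of Cldn3 in the RefSeq annotation, lay between 4.42 and 4.62, and Cldn16, the neighbour of Cldn1, between 3.53 and 3.84. Cldn10 lay between 3.80 and 4.07.

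Cldn5, the claudin of endothelial cells, stood at 7.08 with DEN and CA diet and 6.81 with DEN and control diet, against 6.23 under CA feeding and 6.18 under control feeding. It was 1.55-fold higher with DEN under control feeding and 1.80-fold higher under CA feeding. In the same pools, 7 of 8 endothelial markers reached the limit with DEN on either diet, 5 under CA feeding and 6 under control feeding, and the 6 expressed ones had a median of 0.33 with DEN under control feeding (0.17 after median centring) and 0.54 under CA feeding (0.46). Their part in the difference of Cldn5 was not tested. Cldn22 stayed between 5.64 and 5.89 on the 4 arrays, and of 8 measured claudins of other organs it was the one expressed.

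The carcinogen without CA was addressed by both control diet arrays. By their measured levels 6 of 21 expressed members passed 2-fold upwards with DEN and 0 downwards, against 5.12% and 0.901% of all expressed genes. After median centring of the arrays 455 of all genes were higher and 192 lower, in place of 596 and 105. The median difference was 0.67 over the 8 claudins and -0.12 over the 13 keratins, against 0.035 over all expressed genes. After median centring these were 0.51, -0.28 and -0.13. Of the 13 keratins 6 lay above 0, and 3 of these passed 2-fold. Cldn7 is among the 6 members by its measured levels and at 1.85-fold when counted from the limit. Both Cldn7 and Krt20 are among the 21 only through the DEN arrays, so their place in this count already depended on that difference.

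DEN under CA feeding, measured on the other 2 arrays, had 4 of 21 members past 2-fold upwards (Krt20, Cldn1, Cldn7 and Cldn14) and 0 downwards, against 4.75% and 1.75% of all expressed genes. Krt20 and Cldn7 are among the 21 only through the DEN arrays, so their place in this count already depended on that difference. The median was 0.81 over claudins and 0.27 over keratins, against 0.00433. The DEN differences on both diets share no array. They had the same sign for 18 of 21 members (85.7%) and 76.1% of all expressed genes, and correlated across members at 0.90 (Pearson, 21 genes) and across all expressed genes at 0.86. Krt20 lies far from the other points, and across the other 20 members the correlation was 0.85, a check added after the data were seen. Both Krt20 and Cldn7 entered through the DEN arrays, which favours agreement of the DEN differences, and Cldn7 stayed in this check. Genes of 1 pool are not independent replicates, and these values describe 4 pools.

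**Figure D2:**
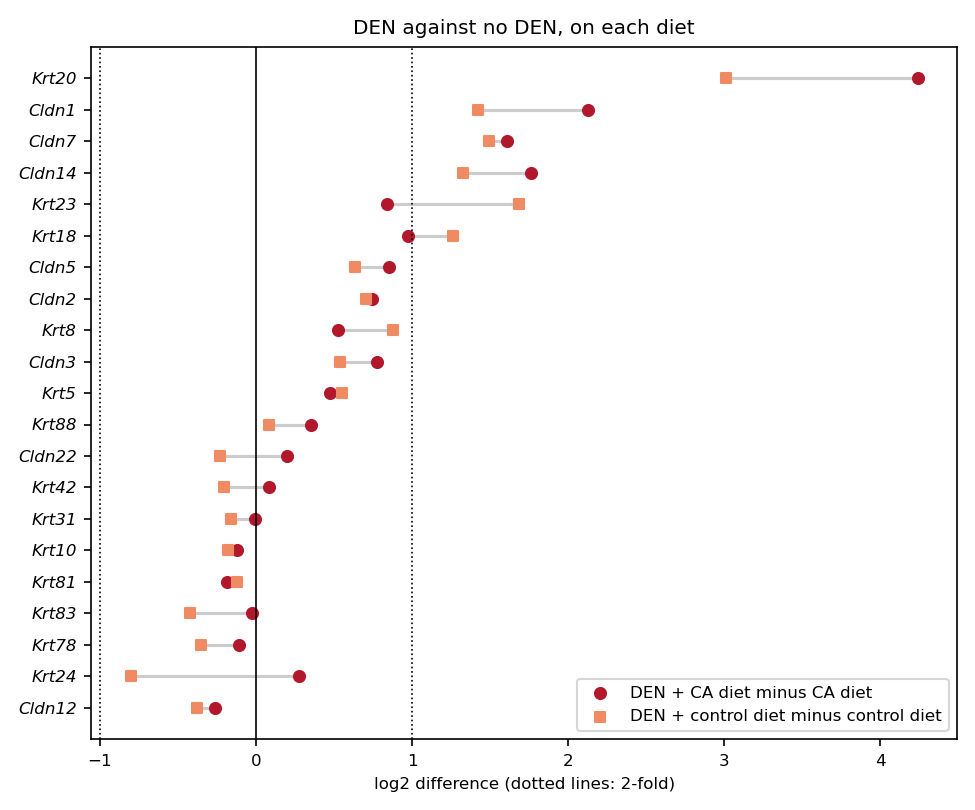
Log2 difference between DEN and no DEN (x axis) for the 21 expressed members (y axis), as circles under CA feeding and squares under control feeding. Krt20, Cldn1, Cldn7 and Cldn14 pass 2-fold on both diets, Krt18 and Krt23 under control feeding, and Cldn12 is among those left of 0 on both.

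DEN with CA diet against control diet, which joins both treatments and shares an array with each of the comparisons above, had the same 6 members past 2-fold upwards and 0 downwards, against 5.97% and 2.2% of all expressed genes. Here too, Krt20 and Cldn7 count as expressed only through the DEN arrays. After median centring 593 of all genes were higher and 347 lower, in place of 696 and 256. Krt20 was at least 4.78-fold higher, Krt23 5.24-fold, Cldn1 2.89-fold, Cldn14 2.79-fold, Krt18 2.14-fold and Cldn7 at least 2.13-fold higher. After median centring Krt18 differed by 0.98 in this comparison and was no longer past 2-fold. Cldn2 differed by 0.21 here, and by -0.06 with the mean over its probe sets.

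The bile acid load without DEN was addressed by the CA diet set against the control diet. Krt23 was the 1 of 21 expressed members at least 2-fold higher, and 0 were lower by that much, against 0.661% and 0.592% of all expressed genes. Cldn1 differed by -0.60, Cldn2 by -0.54, Cldn3 by -0.29 and Cldn14 by -0.28, and the 8 claudins had a median of -0.23 (0.0146 over all expressed genes). The values of Cldn3 and Cldn14 and the claudin median were smaller than the largest hybridization control difference of this comparison (0.305). For Cldn1 the second probe set, which was under the limit on both of these arrays, gave -0.02. The probe sets of Cldn3 gave -0.33 to 0.03, and the second of Cldn2 gave -0.24. Krt8 differed by 0.33, with its 3 probe sets between 0.33 and 0.37, and Krt18 by 0.13.

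After DEN, the CA diet set against the control diet had 0 of 21 members 2-fold different either way, against 0.266% higher and 0.472% lower over all expressed genes. The largest differences were those of Krt20 (0.80), Krt23 (0.70) and Cldn2 (-0.50). The second probe set of Cldn2 gave -0.45 here and -0.24 without DEN. Cldn1 differed by 0.11 and Cldn14 by 0.15. The diet differences with and without DEN share no array, and they had the same sign for 8 of 21 members (38.1%) and 57.7% of all expressed genes.

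**Figure D3:**
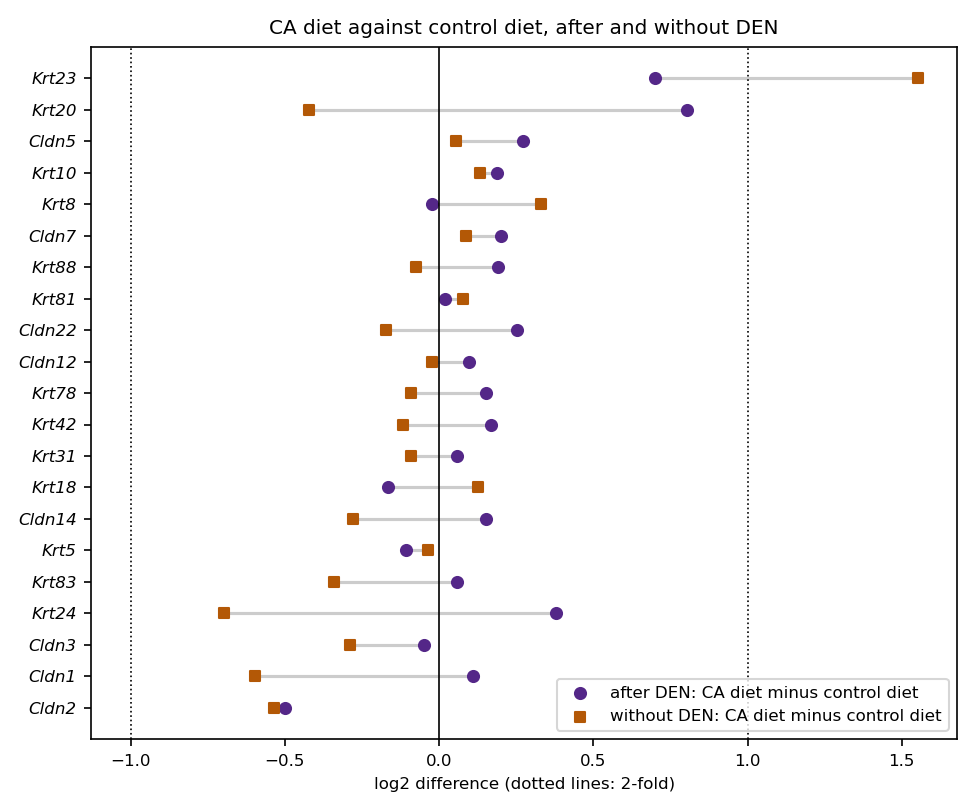
Log2 difference between CA diet and control diet (x axis) for the 21 expressed members (y axis), as circles after DEN and squares without DEN. Krt23 lies right of 0 and Cldn2 left of 0 in both, while Krt20, Krt24 and Cldn1 are among those with their symbols on opposite sides.

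The difference between both diet differences, after DEN minus without DEN, was past 1 on the log2 scale for 2 of 21 members, Krt20 (1.23) and Krt24 (1.08), and below -1 for 0, against 0.438% and 0.73% of all expressed genes. With each array centred, 68 of all genes were past it upwards and 70 downwards, in place of 51 and 85. With values under the limit raised to it Krt20 stood at 0.80 and Krt24 at 0.93, so neither passed, and without DEN both diet levels of Krt20 were under the limit. Krt23 stood at -0.85, the lowest of the 21, and Cldn1 at 0.71.

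The differences were also compared over all 85 probe sets of the members. 14 of the 64 members have several probe sets. For DEN under control feeding 7 probe sets passed 2-fold, 2 of them of Cldn1, and they belonged to the 6 genes named. 0 of these had a mean under the limit, but this mean includes the DEN arrays. The probe sets of Krt20 and Cldn7 and the second one of Cldn1 were under the limit on both arrays without DEN. They cleared the limit only through the DEN arrays, so the mean is no separate support for them. With every probe set counted alone, 832 of 19472 tested over all genes were higher and 177 lower. The 85 include probe sets under the limit, so their count is not directly comparable with that share.

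**Figure D4:**
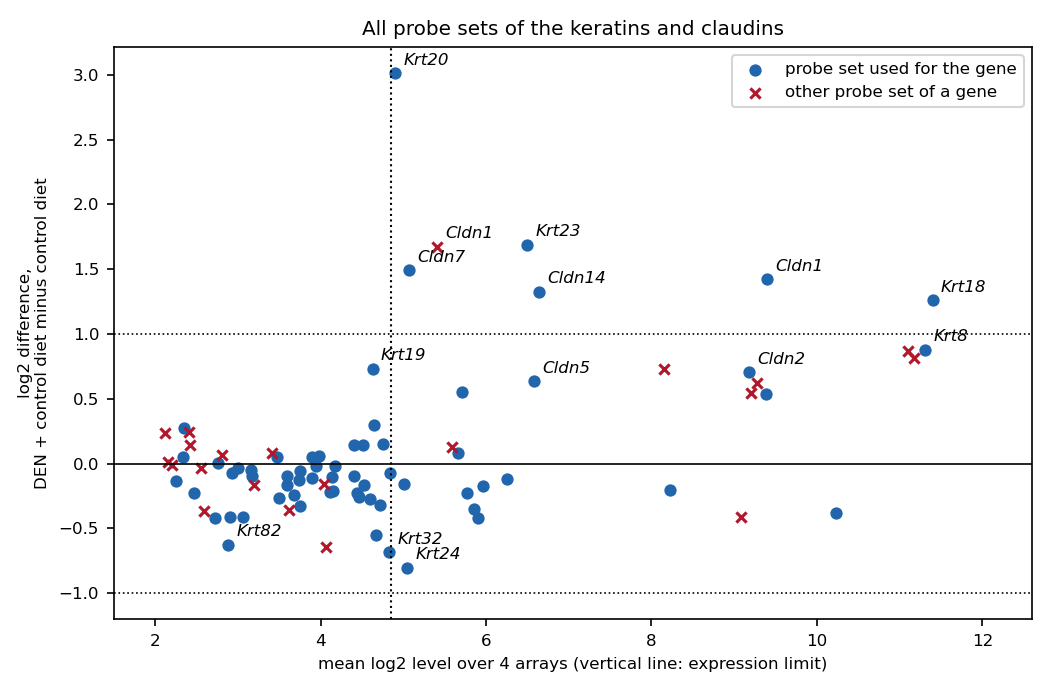
Mean log2 level over the 4 arrays (x axis) and log2 difference of DEN with control diet minus control diet (y axis) for the 85 probe sets, with the one used for each gene as a circle and others as crosses. Each probe set past 2-fold lies right of the limit of 4.855, Krt20 and Cldn7 just right of it, and the 3 probe sets of Krt8 lie together below 2-fold. The mean includes the DEN arrays, and Krt20, Cldn7 and the second probe set of Cldn1 were under the limit on both arrays without DEN.

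Partner genes of the tight junction were compared from a list of 24, of which 21 were measured and 19 expressed. With DEN, 2 of the 19 were at least 2-fold higher and 0 lower under control feeding, where 5.12% of all expressed genes were higher, and 3 higher and 0 lower under CA feeding, where 4.75% were. The list median was 0.45 under control feeding (0.29 after median centring) and 0.31 under CA feeding (0.23). F11r, a junctional adhesion molecule, stood at 9.50 with DEN and CA diet and 9.33 with DEN and control diet, against 8.25 under CA feeding and 8.11 under control feeding, and its other probe set differed by -0.05 with DEN under control feeding and 0.02 under CA feeding. Marveld2, the protein of junctions where 3 cells meet, differed by 1.01 with DEN on each diet, and Tjp3, a scaffold of claudins, by 0.70 under control feeding and 1.20 under CA feeding. Ocln, occludin, differed by 0.50 and 0.37, and Tjp1, the main scaffold, by 0.57 and 0.44. Some partners had negative DEN differences on both diets, among them Mpp5 (-0.79 under control feeding and -0.07 under CA feeding) and Pard3 (-0.14 and -0.30). The Mpp5 value under CA feeding and both Pard3 values were smaller than the largest hybridization control difference of their comparison. That difference was 0.203 under control feeding and 0.370 under CA feeding. On the CA diet against the control diet the list had a median of -0.02 without DEN and -0.07 after DEN, with 0 members 2-fold different in either. Of all expressed genes 0.661% were higher and 0.592% lower without DEN, and 0.266% and 0.472% after DEN.

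Desmosome genes and linkers that anchor keratin filaments differed in both directions. Of 14 measured 12 were expressed and 0 were 2-fold different with DEN on either diet. Of all expressed genes 5.12% were higher and 0.901% lower under control feeding, and 4.75% and 1.75% under CA feeding. The list medians were 0.06 under control feeding (-0.11 with each array centred) and 0.11 under CA feeding (0.03). Under control feeding Ppl, periplakin, differed by 0.77, Plec, the cytolinker plectin, by 0.68 and Evpl, envoplakin, by -0.45, and under CA feeding by 0.22, 0.20 and 0.08. The lowest of 3 Plec probe sets gave 0.02 and -0.10. Dsp, desmoplakin, differed by 0.29 and 0.52 with DEN under control and CA feeding, and Pkp2, plakophilin of simple epithelia, by 0.74 and 0.56, with its lowest probe set at -0.42 and -0.26. Of 10 expressed genes of adherens junctions Cdh1, E-cadherin, was the 1 at least 2-fold higher with DEN on each diet, against 5.12% and 4.75% of all expressed genes. The list median was 0.17 with DEN under control feeding (0.01 after median centring). Cdh1 stood at 10.80 with DEN and CA diet and 10.72 with DEN and control diet, against 9.38 under CA feeding and 8.99 under control feeding. Cdh2, N-cadherin, which hepatocytes also carry, differed by -0.47 with DEN under control feeding and -0.57 under CA feeding.

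Of 8 expressed genes of other intermediate filaments, Vim and Lmna were at least 2-fold higher with DEN on each diet and 0 were lower, a count to be read against the 5.12% and 4.75% of all expressed genes that were higher. Vim, vimentin of mesenchymal cells, differed by 1.51 under control feeding and 1.12 under CA feeding, with its 3 probe sets between 1.40 and 1.59 and between 1.03 and 1.12. Lmna, the nuclear lamin A/C gene, differed by 1.37 and 1.12, and the lowest of its 5 probe sets by -0.05 and -0.33. Of 8 expressed transcription and splicing factors of epithelial differentiation, 2 passed 2-fold with DEN on each diet by their measured levels, against the same 5.12% and 4.75%. Their median for DEN under control feeding was 0.09 (-0.08 after median centring). The 2 were Grhl1, a grainyhead factor, with differences of 1.79 and 1.32 against levels under the limit (at least 2.07-fold under control feeding and just under 2-fold under CA feeding when counted from it), and Klf4, a zinc finger factor (1.18 and 1.86). Grhl1 thus counts as expressed through the DEN arrays. Markers of mesothelium, which also makes keratins, were mostly under the limit, with 1 of 7 at it on the DEN with CA diet array, 2 with DEN and control diet, and 1 on each array without DEN. Of 10 gallbladder and intestinal epithelium markers 7 reached the limit with DEN and CA diet, 6 with DEN and control diet, and 5 on each array without DEN. The 7 expressed ones had a median of 0.03 with DEN under control feeding (-0.13 after median centring) and 0.12 under CA feeding (0.03). By measured levels 2 passed 2-fold upwards on each diet, against 5.12% and 4.75% of all expressed genes. These were Cdh17, an intestinal cadherin, and Vil1, villin of microvilli. Both were under the limit on the arrays without DEN, so they count as expressed through the DEN arrays. Cdh17 was at least 10.5-fold higher under control feeding and at least 5.04-fold under CA feeding, and Vil1 at least 2.09-fold and at least 6.74-fold. Lgals4, an intestinal galectin, differed by -0.47 and -0.67 and Tff2, a trefoil peptide, by -0.28 and -0.30. Cdx1, Cdx2 and Muc2 were under the limit on all 4 arrays. Their part in the difference of Krt20 was not tested.

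**Figure D5:**
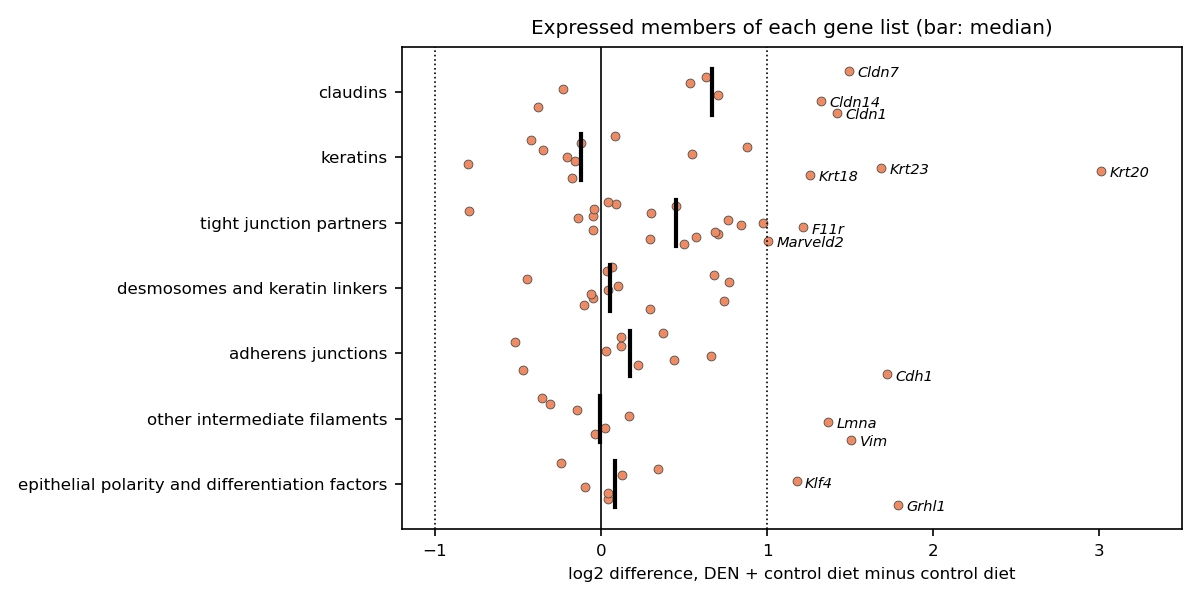
Log2 difference of DEN with control diet minus control diet (x axis) for each expressed member (points) of the claudins, the keratins and 5 partner lists (y axis), with the median as a bar. The bars stand at 0.67 for claudins and 0.45 for tight junction partners and between -0.12 and 0.17 for the keratins and the other 4 lists, and names mark genes past 2-fold. After median centring the bars lie at 0.51 for claudins, 0.29 for tight junction partners, 0.01 for adherens junctions, -0.08 for differentiation factors, -0.11 for desmosomes, -0.17 for other intermediate filaments and -0.28 for keratins.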

How the data were processed

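Hepatic RNA of 4 groups of mice, 1 array each, was measured on an Affymetrix mouse array with 45101 probe sets. Values were deposited as log2 expression. The submitters' processing notes name RMA and Partek 6.5, so per the submitters' processing notes these tools made them, and no source used here states the options. Because RMA draws the arrays' distributions together, a shift shared by most genes would be lost. The array medians were 4.843 to 4.865, and there were no detection calls. RNA labelling used a FlashTag kit, per the labels' protocols.

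Probe sets were named from the platform annotation, where 34958 had 1 symbol and 932 several. 1 probe set with several symbols names a member and was not used. All 64 members matched RefSeq (GRCm38.p6) by gene identifier and 0 symbols changed. Differences of 2 arrays and counts past 2-fold were computed with Python 3.11.15, numpy 2.4.6 and pandas 2.3.3. No test was made. A fold against a level under the limit was computed with that level raised to it. The steps were tested on simulated data.

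Values are given for Krt7, Krt8, Krt18, Krt19, Krt23, 10 claudins of liver, bile duct and vessel, and expressed members, and for up to 4 expressed genes per list with the largest differences. Ocln, Tjp1, Mpp5, Pard3, Epcam, Ezr, Slc4a2, Cdx1, Cdx2, Muc2, Krt12 and Cldn16 were chosen after their values were seen. Members, lists and rules were chosen with earlier results of these data known. Alternatives were other expression limits, a 1.5-fold threshold, quantile normalization, median and loess centring, other probe set rules and low values raised to the limit. With no replicates, the largest difference of a hybridization control served as the tolerance for a moved value, chosen after seeing the data.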

Additional observations from a re-analysis of the deposited data

Results flagged for a closer look

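Krt20 and Krt24 had diet differences of opposite sign with and without DEN, each larger than the largest difference of a hybridization control in that comparison. The difference between these effects was not tested, since each is that of 2 arrays. For Krt20 the CA diet minus the control diet was 0.80 after DEN and -0.42 without DEN, where both levels (2.87 and 3.29) were under the expression limit. For Krt24 it was 0.38 after DEN and -0.70 without DEN, with all 4 levels between 4.73 and 5.53, close to the limit.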

How the results depend on the processing

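No paired analysis was possible because each group has 1 array and no replicate number, and no replicate could be left out for the same reason. With the upper quartile (6.633) as the expression limit, 3 keratins stayed expressed. Then 1 keratin was 2-fold higher for DEN against no DEN under control feeding (4.45% of all 6947 genes expressed by that limit), 0 under CA feeding (4.10%), 1 for DEN with CA diet against control diet (5.11%), 0 for the CA diet without DEN (0.662%), and 0 members were past it for the difference of the diet effects. At 1.5-fold, with more genes called by construction, 5 keratins passed for DEN under control feeding, 4 higher and 1 lower (Krt24), and 5 claudins higher, against 11.1% higher and 4.32% lower of all expressed genes. For DEN under CA feeding 3 keratins and 6 claudins were higher (10.3%). For the CA diet without DEN 2 keratins passed, Krt23 higher and Krt24 lower, and 1 claudin, Cldn1, lower (2.49% higher and 1.77% lower). For the CA diet after DEN 2 keratins were higher (1.34%), and for the difference of the diet effects 4 members passed, 3 higher and 1 lower (2.25% and 3.18%). Under quantile normalization 2 keratins passed 2-fold for DEN under CA feeding, Krt18 (1.00) joining Krt20. With low values raised to the limit the difference of the diet effects was past 2-fold for 0 members, Krt20 standing at 0.80 and Krt24 at 0.93. Other counts stayed within 1.5 times. After median centring Krt18 stood at 0.98 for DEN with CA diet against control diet, and with the mean over probe sets the level of Cldn1 lay under the limit, which ended both calls.

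Of the log2 differences of named members, 0 past 2-fold changed sign. With low values raised, Krt20 stood at 1.45 for DEN under control feeding and 2.26 under CA feeding, and Cldn7 at 0.89 and 1.09. With the mean over probe sets Cldn2 stood at 0.42 and 0.33, and at -0.06 for DEN with CA diet against control diet. Centring each array on its median moved the median of all expressed genes for DEN under control feeding to -0.13, against 0.035, and Krt18 then differed by 1.10. Values under the limit lie close to the array's background, which limits what can be said of Krt20, Cldn7 and the 43 members not expressed.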
